A study of Mus musculus with 5 samples.

Results

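The 10 CXC chemokines analysed here were Cxcl1, Cxcl2, Cxcl3, Cxcl5, Cxcl9, Cxcl10, Cxcl12, Cxcl13, Cxcl14 and Cxcl16, chosen by symbol. They were read by 14 of the 56605 probes of an Agilent 60-mer mouse array and made up 10 of 33003 named genes. Cxcl10, Cxcl12, Cxcl14 and Cxcl16 had 2 probes each and the other 6 genes had 1. A gene was represented by its brightest probe, the one with the highest mean signal over the arrays. For these members the other probe is given beside it, and for other genes only in part. RNA came from 5 conditions with 1 array each: liver sinusoidal endothelial cells (LSECs) of C57BL/6 mouse liver, tumor endothelial cells (TECs) of HAK1B, Hepa1-6 and KYN2 tumors, and cultured Hepa1-6 cancer cells of strain C57L. HAK1B and KYN2 are hepatoma lines of human origin, whereas Hepa1-6 comes from a mouse hepatoma, and the tumors were grown in the left liver lobe. The labels give C57BL/6 for the TECs as well, whereas the methods name both C57BL/6 and nude BALB/c nu/nu mice, female and 6 weeks old. TECs and LSECs were the cells held by beads against CD31, an endothelial surface protein that is also found on platelets and some leukocytes, and how many animals went into an array is not given in the sources used here.

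Chemokines are small secreted proteins that bind to receptors on the cell surface and guide the movement of cells, and the CXC family has a single residue between its first pair of cysteines. Members with a glutamate-leucine-arginine (ELR) motif before the cysteines bind Cxcr2, draw neutrophils and are known to promote vessel growth. The interferon-induced members bind Cxcr3, draw T and NK cells and are known to restrain vessel growth. Endothelial cells of the liver sinusoid both make CXC chemokines and carry them on their surface, where heparan sulfate holds them in reach of passing leukocytes.

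All values are log2 intensities normalized so that the 5 arrays share one distribution, and 1 unit is a doubling. A probe counts as measured on an array where the scanner software marked it well above background. This held for 54.1% of probes on the LSEC array, 57.6% on HAK1B TEC, 78.1% on Hepa1-6 TEC, 54.7% on KYN2 TEC and 44.6% on the cancer cell array. Repeated spots within an array had a median coefficient of variation of 2.62 to 3.08%, which covers neither animals nor tumors. No probe was saturated. The TEC arrays shared 1 slide and the LSEC and cancer cell arrays were each on another, so effects of slide and of group cannot be told apart here. The 12 pan-endothelial markers were all measured on the LSEC array and the 3 TEC arrays, and 2 of 12 were measured in the cancer cells. Their median log2 signal was 13.94 in LSEC and 12.38, 12.06 and 12.96 in HAK1B, Hepa1-6 and KYN2 TEC. Levels in these bulk preparations cannot tell fewer cells of a type from less RNA per cell.

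Of the 10 genes, 8 have a promoter in a RefSeq table of GRCm38.p6, namely all but Cxcl5 and Cxcl16. The 250 bases before the annotated start were searched on both strands for GGGNNNTTCC, a form of the kB site bound by NF-kB, for GAAANNGAAA, the core of the interferon-stimulated response element (ISRE), and for TTCNNNGAA, the gamma-activated site (GAS) bound by STAT proteins. Of 27025 promoters of the same length, 4.60% held the first, 3.04% the second and 7.18% the third. Cxcl1, Cxcl2, Cxcl3 and Cxcl10 held 2 separate kB matches each, Cxcl10 and Cxcl14 held 1 ISRE core each, and Cxcl14 held 1 GAS. None of these letters was found in the windows of Cxcl9, Cxcl12 and Cxcl13. The 5 windows with a match are shown because they cover the neighbouring ELR genes Cxcl1, Cxcl2 and Cxcl3, the interferon-induced Cxcl10, and Cxcl14. They lie at chr5:90890995-90891244 (Cxcl1, plus strand), chr5:90903649-90903898 (Cxcl2, plus), chr5:90785851-90786100 (Cxcl3, plus), chr5:92348890-92349139 (Cxcl10, minus) and chr13:56296552-56296801 (Cxcl14, minus). They are written 5′ to 3′ on the strand of the gene and end at its start, with motif matches in capitals.
Cxcl1: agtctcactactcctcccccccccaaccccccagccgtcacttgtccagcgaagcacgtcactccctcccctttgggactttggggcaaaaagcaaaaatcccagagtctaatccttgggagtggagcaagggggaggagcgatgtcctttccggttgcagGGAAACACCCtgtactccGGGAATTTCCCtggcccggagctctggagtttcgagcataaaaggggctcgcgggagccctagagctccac
Cxcl2: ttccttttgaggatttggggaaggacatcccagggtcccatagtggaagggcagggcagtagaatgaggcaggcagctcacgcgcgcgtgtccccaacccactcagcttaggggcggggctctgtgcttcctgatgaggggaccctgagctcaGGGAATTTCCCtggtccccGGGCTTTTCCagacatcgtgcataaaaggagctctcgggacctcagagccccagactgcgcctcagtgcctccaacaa
Cxcl3: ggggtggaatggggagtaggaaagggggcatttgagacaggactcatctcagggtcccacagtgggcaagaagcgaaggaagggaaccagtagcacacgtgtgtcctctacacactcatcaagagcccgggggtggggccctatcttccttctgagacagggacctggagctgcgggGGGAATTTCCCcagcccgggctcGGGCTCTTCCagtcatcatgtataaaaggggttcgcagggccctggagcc
Cxcl10: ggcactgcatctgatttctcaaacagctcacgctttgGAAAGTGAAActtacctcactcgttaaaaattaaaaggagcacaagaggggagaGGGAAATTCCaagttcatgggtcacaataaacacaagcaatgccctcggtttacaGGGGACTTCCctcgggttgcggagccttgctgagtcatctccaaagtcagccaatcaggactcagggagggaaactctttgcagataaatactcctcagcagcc
Cxcl14: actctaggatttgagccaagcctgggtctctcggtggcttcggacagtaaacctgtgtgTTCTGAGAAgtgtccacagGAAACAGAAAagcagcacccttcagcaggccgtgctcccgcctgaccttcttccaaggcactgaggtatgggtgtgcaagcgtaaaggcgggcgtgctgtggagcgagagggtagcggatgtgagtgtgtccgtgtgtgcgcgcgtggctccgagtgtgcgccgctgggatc
The run GGGAATTTCC stands in the windows of Cxcl1, Cxcl2 and Cxcl3, beginning 71, 97 and 73 bases before the start, and overlaps a match on the opposite strand in each. In Cxcl10 the ISRE core GAAAGTGAAA begins 213 bases before the start, upstream of kB matches at 159 and 104 bases. A match is a description of letters and not evidence of binding.

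**Figure D1:**
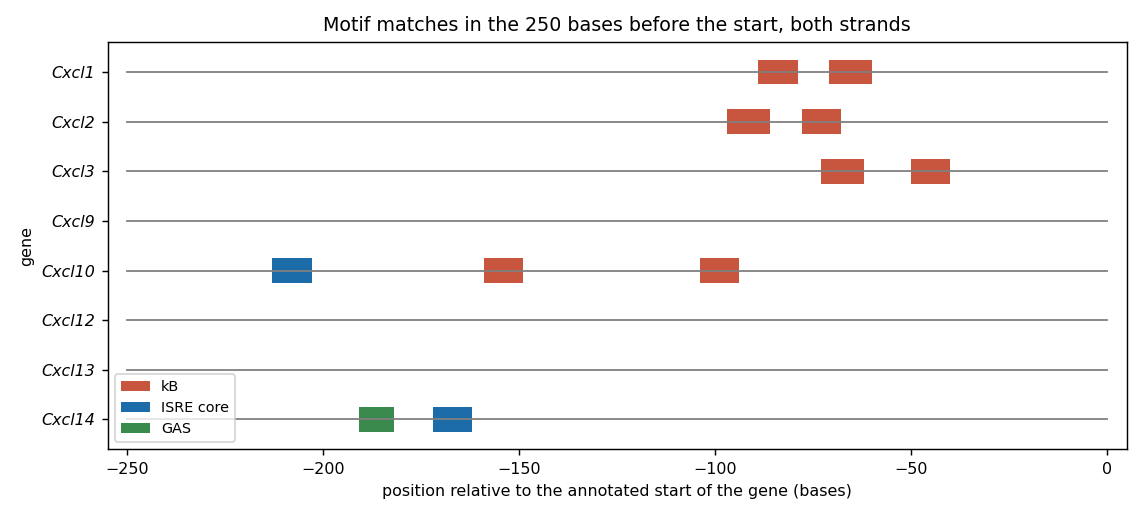
Position of kB (red), ISRE core (blue) and GAS (green) matches in the 250 bases before the start of 8 CXC chemokine genes, with the distance from the start in bases on the x axis. The kB matches of Cxcl1, Cxcl2 and Cxcl3 lie within 97 bases of the start.

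Because each condition had 1 array, no test applies to a single comparison, and genes were called by size as in the methods. A call of higher needed a ratio to LSEC of 1.5 or more and a Z-score reaching 2, and a call of lower a ratio of 0.66 or less and a Z-score reaching -2. Z-scores were taken over all probes kept. In HAK1B TEC, Cxcl3 and Cxcl14 were called higher and Cxcl9 lower, 2 and 1 of 10 genes, where 3.11% and 3.94% of all genes were called. In Hepa1-6 TEC, Cxcl3 was called higher and Cxcl13 lower, against 4.55% and 2.04% of all genes. In KYN2 TEC, Cxcl3, Cxcl12 and Cxcl14 were called higher and Cxcl13 lower, against 3.64% and 2.87%. In all 3 TECs, Cxcl3 was called higher and no member lower, against 0.580% and 1.00% of all genes. All 10 members passed the filter on dim probes in each comparison, but Cxcl3 and Cxcl5 were not above background in LSEC and passed through the other array alone.

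A plain 2-fold difference was more common. It was counted with each value not well above background raised to the lowest value above background on its array, a choice made after the data were seen. In HAK1B TEC, 4 members were then at least 2-fold higher and 2 at least 2-fold lower than in LSEC, where 14.3% and 16.9% of all genes were. The numbers were 3 higher and 5 lower in Hepa1-6 TEC, against 16.9% and 20.4% of all genes, and 6 higher and 1 lower in KYN2 TEC, against 14.6% and 16.1%. Cxcl3 and Cxcl14 were at least 2-fold higher in all 3 TECs and no member was 2-fold lower in all 3, where 5.52% and 9.94% of genes were. With dim values taken as measured, Cxcl5 also passed 2-fold in HAK1B TEC, which made 5 members higher and 2 lower there, against 17.4% and 18.0% of all genes. The counts in Hepa1-6 and KYN2 TEC stayed as they were, against 25.0% and 22.1% in the former and 16.8% and 18.3% in the latter, and in all 3 TECs 3 were higher and 0 lower, against 6.33% and 11.0%. A ratio of 1.5 or 0.66 alone put 8 members higher and 2 lower in HAK1B TEC, where 26.6% and 26.9% of all genes were, 4 and 5 in Hepa1-6 TEC, against 35.2% and 30.9%, and 6 and 2 in KYN2 TEC, against 26.0% and 28.5%. In all 3 TECs it put 4 higher and 1 lower, against 11.0% and 17.8%. The median log2 ratio over the 10 members was 1.28 in HAK1B TEC, -0.72 in Hepa1-6 TEC and 1.53 in KYN2 TEC, and that of all genes kept was -0.0019, 0.087 and -0.047. Over the 8 members measured on both arrays, without Cxcl3 and Cxcl5, it was 0.87, -1.28 and 0.77. The HAK1B and KYN2 arrays stood above LSEC at the median and the Hepa1-6 TEC array below it.

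**Figure D2:**
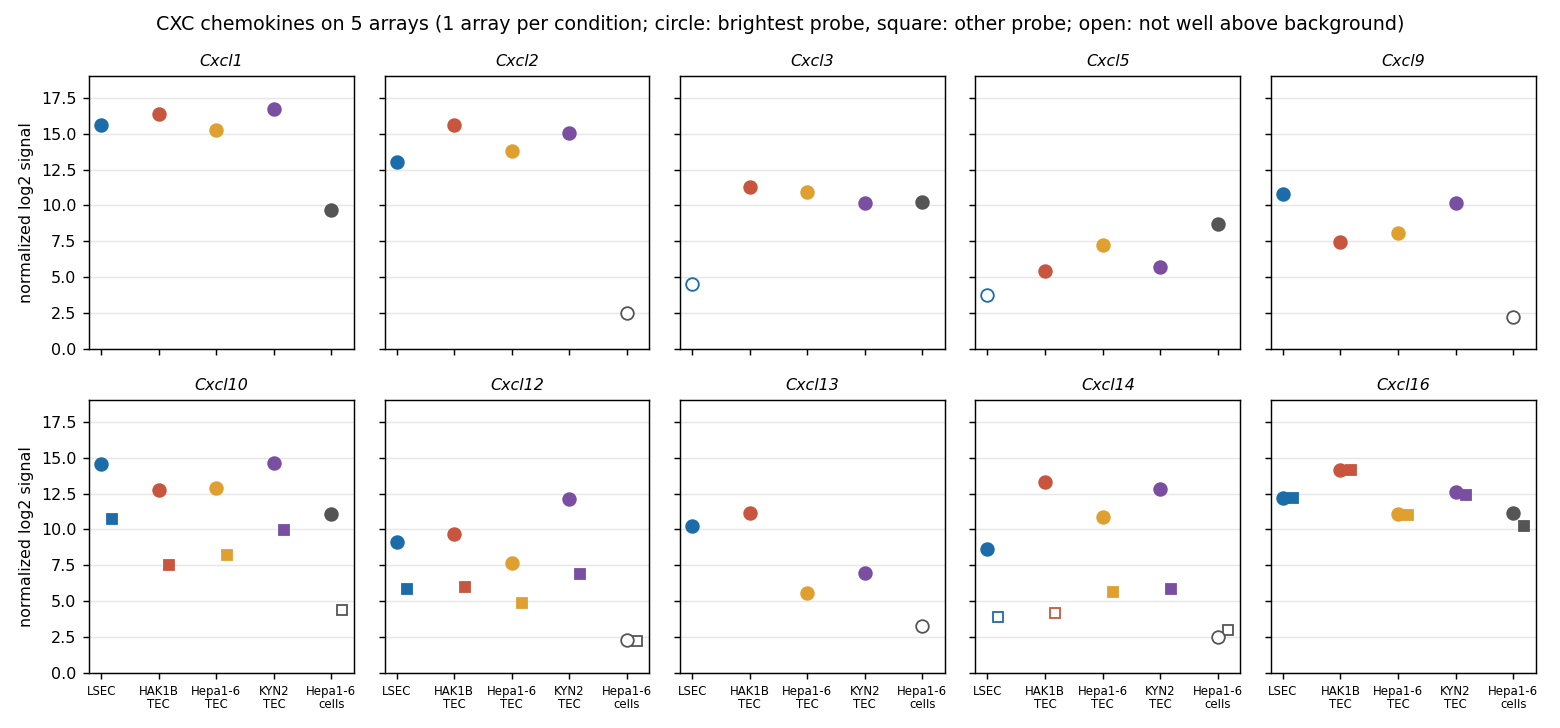
Normalized log2 signal (y axis) of each CXC chemokine on the 5 arrays (x axis), 1 point per array. Circles are the brightest probe, squares the other probe, and open symbols are not well above background. Cxcl3 and Cxcl5 are open in LSEC alone, and Cxcl2, Cxcl9, Cxcl12, Cxcl13 and Cxcl14 are open in the cancer cells.

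The ELR ligands of Cxcr2 included Cxcl3, the member with the largest mean ratio of the TECs to LSEC. Cxcl3 had a log2 signal of 4.55 in LSEC, not well above background, and of 11.27 in HAK1B TEC, 10.96 in Hepa1-6 TEC, 10.18 in KYN2 TEC and 10.28 in the cancer cells. LSEC stood alone at background, and the other 4 arrays lay close together. Counted against the lowest signal above background on the LSEC array, Cxcl3 was at least 96.1-fold higher in HAK1B TEC, at least 77.8-fold in Hepa1-6 TEC, at least 45.3-fold in KYN2 TEC and at least 48.4-fold in the cancer cells. The probe lies at chr5:91216694-91216753 of mm9 and shares no run of 20 bases with a probe of another gene name.

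Cxcl2, a chemokine that macrophages and endothelium release early in inflammation, was measured on every array but that of the cancer cells. Its log2 signal was 13.03 in LSEC, 15.64 in HAK1B TEC, 13.77 in Hepa1-6 TEC and 15.07 in KYN2 TEC, and 2.53 in the cancer cells. All 3 TECs lay above LSEC, by 6.12-fold, 1.67-fold and 4.11-fold. The Z-scores were 1.83, 0.37 and 1.48, so Cxcl2 stayed under the limit of the rule. Under normexp background correction Cxcl2 was called higher in HAK1B and KYN2 TEC. In HAK1B TEC it was also called with no flag filter and where both arrays had to be flagged present. In the cancer cells it was at least 134-fold lower than in LSEC.

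Cxcl1, the mouse counterpart of the growth-regulated oncogene chemokines, was bright on the 4 endothelial arrays. Its log2 signal was 15.60 in LSEC, 16.39 in HAK1B TEC, 15.27 in Hepa1-6 TEC, 16.74 in KYN2 TEC and 9.71 in the cancer cells. The ratios to LSEC were 1.74-fold and 2.21-fold higher in HAK1B and KYN2 TEC and 1.25-fold lower in Hepa1-6 TEC, a direction that turned when arrays were scaled to their 75th percentile (log2 ratio 0.085). The cancer cells were 59.1-fold below LSEC and were called lower.

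Cxcl5, a further neutrophil attractant, was dim on all endothelial arrays. Its log2 signal was 3.79 in LSEC, not above background, 5.40 in HAK1B TEC, 7.26 in Hepa1-6 TEC, 5.70 in KYN2 TEC and 8.71 in the cancer cells, where it was highest. Against the background of the LSEC array this was at least 1.65-fold, 6.00-fold, 2.03-fold and 16.4-fold higher. The array of Hepa1-6 TEC lay between the other TECs and the Hepa1-6 cells. None of these differences was called, the Z-score being 1.97 in Hepa1-6 TEC.

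Markers of neutrophils and macrophages are given beside these ligands. Of 13 neutrophil markers, 10 were measured in LSEC, with a median log2 signal of 7.82, and Ly6g, Ngp and Ltf were not above background. In HAK1B and Hepa1-6 TEC all 13 were measured, with medians of 11.22 and 11.27, and in KYN2 TEC 11 were, with a median of 9.44. The log2 of the summed signal of the list was 16.53 in LSEC and 17.76, 16.30 and 16.38 in the 3 TECs in the same order. All 14 macrophage markers were measured in LSEC and in each TEC, with medians of 14.77 in LSEC and 14.70, 13.90 and 14.65 in HAK1B, Hepa1-6 and KYN2 TEC, and summed log2 signals of 19.75, 19.67, 18.85 and 19.21. The part of either cell type in the levels of Cxcl1, Cxcl2, Cxcl3 and Cxcl5 was not tested.

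**Figure D3:**
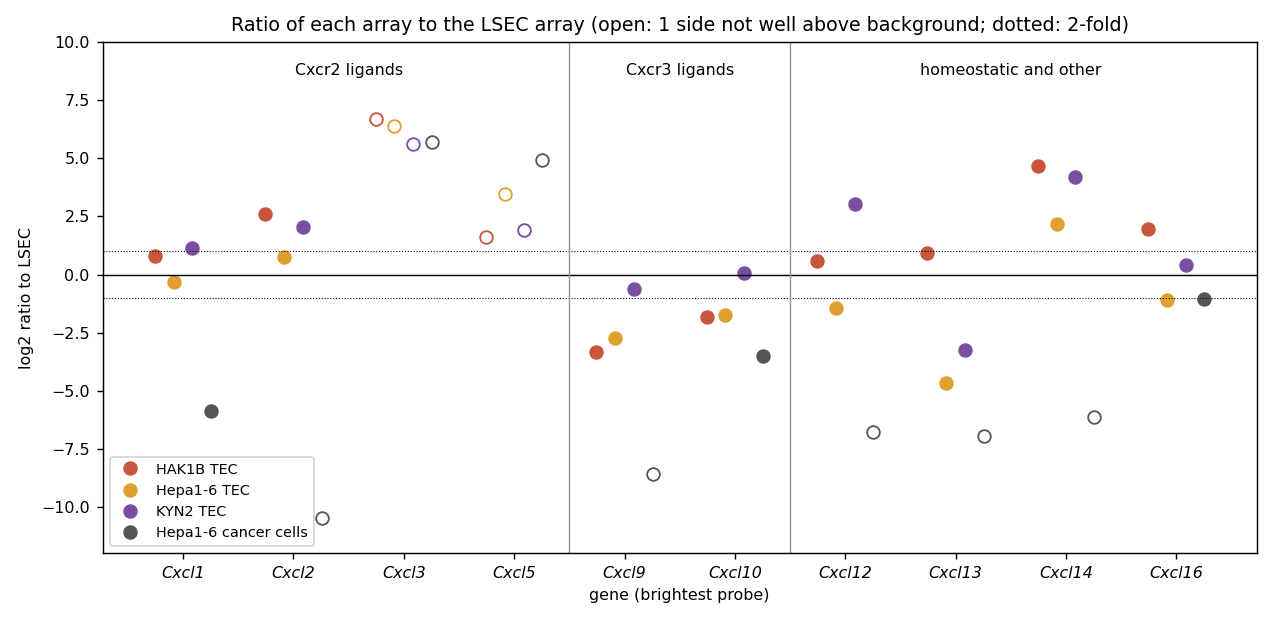
Log2 ratio of each of the 4 other arrays to the LSEC array (y axis) for the brightest probe of each CXC chemokine (x axis), grouped by role. Open points have 1 side not well above background, so that they are not measured differences, and dotted lines mark 2-fold. Cxcl2, Cxcl3, Cxcl5 and Cxcl14 lie above 0 in all 3 TECs, Cxcl3 and Cxcl5 with open points, and Cxcl9 lies below 0 in all 3.

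Of the Cxcr3 ligands, Cxcl9 was called lower in HAK1B TEC and no other TEC was called on the brightest probes. Cxcl9, which interferon gamma induces in endothelium and macrophages, had a log2 signal of 10.80 in LSEC, 7.46 in HAK1B TEC, 8.07 in Hepa1-6 TEC, 10.20 in KYN2 TEC and 2.23, not above background, in the cancer cells. LSEC was the highest array, and every TEC lay below it. The fold was 10.1 in HAK1B TEC, which was called lower, 6.65 in Hepa1-6 TEC and 1.52 in KYN2 TEC. In the cancer cells Cxcl9 was at least 28.6-fold lower.

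Cxcl10, induced by interferons of both types and by NF-kB, split the TECs. Its brightest probe gave 14.58 in LSEC, 12.75 in HAK1B TEC, 12.86 in Hepa1-6 TEC, 14.63 in KYN2 TEC and 11.08 in the cancer cells. HAK1B and Hepa1-6 TEC were 3.58-fold and 3.31-fold below LSEC, and KYN2 TEC differed from LSEC by 1.03-fold. The second probe, at chr5:92776616-92776675 of mm9, gave 10.76, 7.53, 8.25, 9.95 and 4.36 on the same arrays, the last not above background. On that probe all 3 TECs lay below LSEC, by 9.43-fold, 5.73-fold and 1.76-fold, and HAK1B TEC was called lower. The probes differed by 0.79 to 1.40 log2 units in the ratio of a TEC to LSEC, so the position of KYN2 TEC relative to LSEC depends on the probe.

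Of 12 genes of the interferon response, all were measured in LSEC and in each TEC. None was called in any TEC. Of all genes, 3.11%, 4.55% and 3.64% were called higher and 3.94%, 2.04% and 2.87% lower in HAK1B, Hepa1-6 and KYN2 TEC. The median log2 ratio of the 12 genes was -0.93 in HAK1B TEC, -1.54 in Hepa1-6 TEC and -1.15 in KYN2 TEC. The 3 with the largest absolute mean log2 ratio over the TECs were Socs1, Stat2 and Irf1, all lower than in LSEC. Socs1, an inhibitor of cytokine signalling, gave 10.59 in LSEC and 9.15, 8.58 and 9.41 in HAK1B, Hepa1-6 and KYN2 TEC. Stat2, which carries signals of type I interferon, gave 12.80 in LSEC and 11.56, 11.20 and 11.20. Irf1, a transcription factor induced by interferon gamma, gave 15.74 in LSEC and 14.02, 14.14 and 14.86. On the brightest probes, 11 of the 12 genes lay lower in every TEC than in LSEC. Irf8 lay higher in every TEC, at 13.17 in LSEC and 14.03, 13.73 and 13.62. The share of all genes lower in every TEC was not counted. At 2-fold, 3 of the 12 were lower in all 3 TECs, against 11.0% of all genes. Second probes went the other way in 2 of the 12 genes. That of Stat2 gave 6.78 in LSEC and 5.91, 7.21 and 5.85, so Hepa1-6 TEC lay above LSEC on it, and that of Irf8 gave 11.54 in LSEC and 10.23, 9.61 and 9.45, lower in every TEC. Of the 12 T and NK cell markers, 9 were measured in LSEC and 11, 12 and 10 in HAK1B, Hepa1-6 and KYN2 TEC, with medians of 8.01, 8.05, 8.62 and 8.78 and summed log2 signals of 12.35, 12.39, 15.13 and 12.90. Their part in the levels of Cxcl9 and Cxcl10 was not tested.

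Among the other ligands, Cxcl14 was higher in every TEC. This chemokine of epithelia and stroma gave a log2 signal of 8.66 in LSEC, 13.31 in HAK1B TEC, 10.84 in Hepa1-6 TEC, 12.86 in KYN2 TEC and 2.51, not above background, in the cancer cells. The fold over LSEC was 25.2 in HAK1B TEC and 18.3 in KYN2 TEC, both called, and 4.52 in Hepa1-6 TEC, with a Z-score of 1.21. The second probe was dim, at 3.91 in LSEC and 4.15 in HAK1B TEC, neither above background, 5.65 in Hepa1-6 TEC and 5.85 in KYN2 TEC. It therefore gave no value for HAK1B TEC against LSEC, and bounds of at least 1.97-fold and 2.26-fold higher for the other TECs. Of 11 markers of stellate cells and fibroblasts, 8 were measured in LSEC and 10, 11 and 10 in HAK1B, Hepa1-6 and KYN2 TEC, with medians of 6.83, 6.54, 7.59 and 8.08 and summed log2 signals of 13.67, 14.55, 15.54 and 15.14, and their part in Cxcl14 was not tested.

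Cxcl12, which holds leukocytes and progenitors through Cxcr4, varied widely between tumors. Its log2 signal was 9.10 in LSEC, 9.69 in HAK1B TEC, 7.65 in Hepa1-6 TEC, 12.13 in KYN2 TEC and 2.31, not above background, in the cancer cells. KYN2 TEC was 8.21-fold above LSEC and called higher, HAK1B TEC was 1.51-fold above it and Hepa1-6 TEC was 2.73-fold below it. The second probe, at chr6:117125026-117125085 of mm9, kept this order with smaller ratios, 2.11-fold higher in KYN2 TEC, 1.13-fold higher in HAK1B TEC and 1.95-fold lower in Hepa1-6 TEC. On it no TEC was called, the Z-score in KYN2 TEC being 0.78.

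Cxcl13, the attractant of B cells through Cxcr5, had the widest spread over the TECs. It gave 10.22 in LSEC, 11.17 in HAK1B TEC, 5.54 in Hepa1-6 TEC, 6.96 in KYN2 TEC and 3.25, not above background, in the cancer cells. Hepa1-6 and KYN2 TEC were 25.6-fold and 9.59-fold below LSEC and both called lower, while HAK1B TEC was 1.93-fold above. The log2 range over the 3 TECs was 5.62. All 5 B cell markers were measured on the LSEC and TEC arrays, with medians of 10.75 in LSEC, 11.19 in HAK1B TEC, 8.41 in Hepa1-6 TEC and 10.05 in KYN2 TEC and summed log2 signals of 12.80, 13.30, 11.57 and 12.97, and their part in Cxcl13 was not tested.

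Cxcl16, a membrane-bound ligand of Cxcr6 that is cut from the surface by Adam10, was measured on all 5 arrays. It gave 12.22 in LSEC, 14.18 in HAK1B TEC, 11.11 in Hepa1-6 TEC, 12.61 in KYN2 TEC and 11.18 in the cancer cells. HAK1B TEC was 3.88-fold above LSEC, KYN2 TEC 1.31-fold above and Hepa1-6 TEC 2.15-fold below. The second probe differed from the first by 0.015 to 0.18 log2 units in the ratio of a TEC to LSEC, so both probes gave the same order over LSEC and the TECs. The cancer cells lay 0.062 log2 units above Hepa1-6 TEC on the first probe, whereas on the second Hepa1-6 TEC lay 0.79 above the cancer cells.

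The cancer cells had more members called against LSEC than any TEC, but with both arrays flagged present they had 0 higher and 2 lower, against 2 higher and 1 lower in HAK1B and in KYN2 TEC. Cxcl3 was called higher and Cxcl1, Cxcl2, Cxcl9, Cxcl12, Cxcl13 and Cxcl14 lower, 1 and 6 of 10, where 2.59% and 4.81% of all genes were called. By 2-fold alone 2 members were higher and 8 lower, against 28.2% and 23.1% of all genes with dim values at their bound, 28.2% and 30.9% with dim values as measured, and 36.2% and 37.7% at a ratio of 1.5 or 0.66. The median log2 ratio was -6.02, or -3.32 with dim values at their bound, where that of all genes was -0.017. The calls of Cxcl14 and Cxcl1 were lost under scaling to the 75th percentile and those of Cxcl14 and Cxcl12 under normexp background correction. Cxcl1, Cxcl3, Cxcl5, Cxcl10 and Cxcl16 were the 5 members above background in these cells. The 4 markers of cholangiocytes and other epithelia were all measured in Hepa1-6 TEC, with a median of 9.002 and a summed log2 signal of 10.97, and 2 were measured in the cancer cells, with a median of 6.74 and a sum of 11.18. In LSEC, HAK1B TEC and KYN2 TEC 1, 1 and 3 were measured, with sums of 6.40, 6.06 and 7.52. The part of carried-over tumor cells in the levels of Cxcl3 and Cxcl5 in Hepa1-6 TEC was not tested.

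Taking the 3 TECs as 1 group against the lone LSEC array left 2 residual degrees of freedom and assumes that LSEC varies as the TECs do. The mean log2 ratio was 3.67 ± 1.32 (SD, n = 3 tumors) for Cxcl14, 1.80 ± 0.96 for Cxcl2 and -2.22 ± 1.44 for Cxcl9. For Cxcl3 and Cxcl5, whose LSEC values were at background, it was at least 6.12 ± 0.56 and at least 1.44 ± 1.00. For these 5 genes LSEC lay outside the range of the TECs. For the other 5 it lay within that range: 0.54 ± 0.77 for Cxcl1, 0.73 ± 2.24 for Cxcl12, 0.41 ± 1.53 for Cxcl16, -1.17 ± 1.06 for Cxcl10 and -2.33 ± 2.92 for Cxcl13. How often LSEC lay outside the TEC range over all genes was not counted, so these numbers describe the members alone. No probe passed an adjusted p of 0.05 in limma with Benjamini-Hochberg adjustment over 42115 probes, where 3581 probes and 2 members had an unadjusted p under 0.05. Among members measured on all 4 arrays, Cxcl14 had the smallest adjusted p in limma, 0.527. That of Cxcl3, 0.443, rests on an LSEC value at background.

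The pattern over arrays was set side by side as the mean absolute difference of log2 signals after each gene's mean was removed. Over the LSEC and TEC arrays the closest pairs were Cxcl9 and Cxcl10, at 0.46, and Cxcl1 and Cxcl2, at 0.50. Over all 5 arrays, with the cancer cells added, these pairs stood at 1.37 and 1.78. The closest pairs were then Cxcl1 and Cxcl12, at 0.81, and Cxcl2 and Cxcl14, at 1.02, so the pairing depends on the arrays used. Of the 3 TEC arrays, Hepa1-6 TEC was the lowest for 6 of the 10 members and HAK1B TEC the highest for 5. How often each array was lowest or highest over all genes was not counted, so these numbers describe the members alone.

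Of 8 receptors, 7 passed the filter on dim probes in all 3 TEC comparisons. Of these 7, 1 was called lower and 0 higher in all 3 TECs, where 1.00% and 0.580% of all genes were. Ackr1, a decoy that binds many chemokines without signalling and is known from venules, was called lower in all 3 TECs. It gave 13.73 in LSEC, 10.82 in HAK1B TEC, 9.52 in Hepa1-6 TEC, 10.44 in KYN2 TEC and 2.32, not above background, in the cancer cells. The TECs lay 7.52-fold, 18.5-fold and 9.79-fold below LSEC, and under scaling to the 75th percentile HAK1B TEC was no longer called. Its second probe gave 12.83 in LSEC and 10.07, 8.72 and 9.71 in the TECs in the same order.

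Cxcr4 and Ackr3, the signalling and scavenging receptors of Cxcl12, were higher in every TEC on their brightest probe, which was not called. Cxcr4 gave 9.46 in LSEC, 12.12 in HAK1B TEC, 10.44 in Hepa1-6 TEC, 11.87 in KYN2 TEC and 4.13, not above background, in the cancer cells. Its second probe gave 6.51 in LSEC and 10.09, 5.87 and 9.57 in the TECs, so Hepa1-6 TEC lay above LSEC on one probe and below it on the other. On the second probe HAK1B and KYN2 TEC were called higher, at 11.95-fold and 8.33-fold with Z-scores of 2.51 and 2.21. Ackr3 gave 10.48 in LSEC, 13.17 in HAK1B TEC, 11.77 in Hepa1-6 TEC, 12.74 in KYN2 TEC and 4.78, not above background, in the cancer cells, which put the TECs 6.45-fold, 2.44-fold and 4.81-fold above LSEC.

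Cxcr2, the receptor of the ELR ligands and a marker of neutrophils, gave 4.45 in LSEC, not above background, 9.01 in HAK1B TEC, 7.69 in Hepa1-6 TEC, 4.75 in KYN2 TEC and 5.02, not above background, in the cancer cells. It was at least 20.2-fold higher in HAK1B TEC, which was called, at least 8.08-fold in Hepa1-6 TEC and at least 1.05-fold in KYN2 TEC. Cxcr1 was dim, at 5.50 in HAK1B TEC and 2.69 to 2.92 on the other arrays. Cxcr3 gave 8.35 in LSEC and 9.89, 7.45 and 7.77 in HAK1B, Hepa1-6 and KYN2 TEC. Cxcr5 gave 8.99 in LSEC and 10.22, 8.04 and 9.62, and Cxcr6, the receptor of Cxcl16, 9.56 in LSEC and 10.59, 7.53 and 8.63. None of the 8 receptors was above background in the cancer cells.

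**Figure D4:**
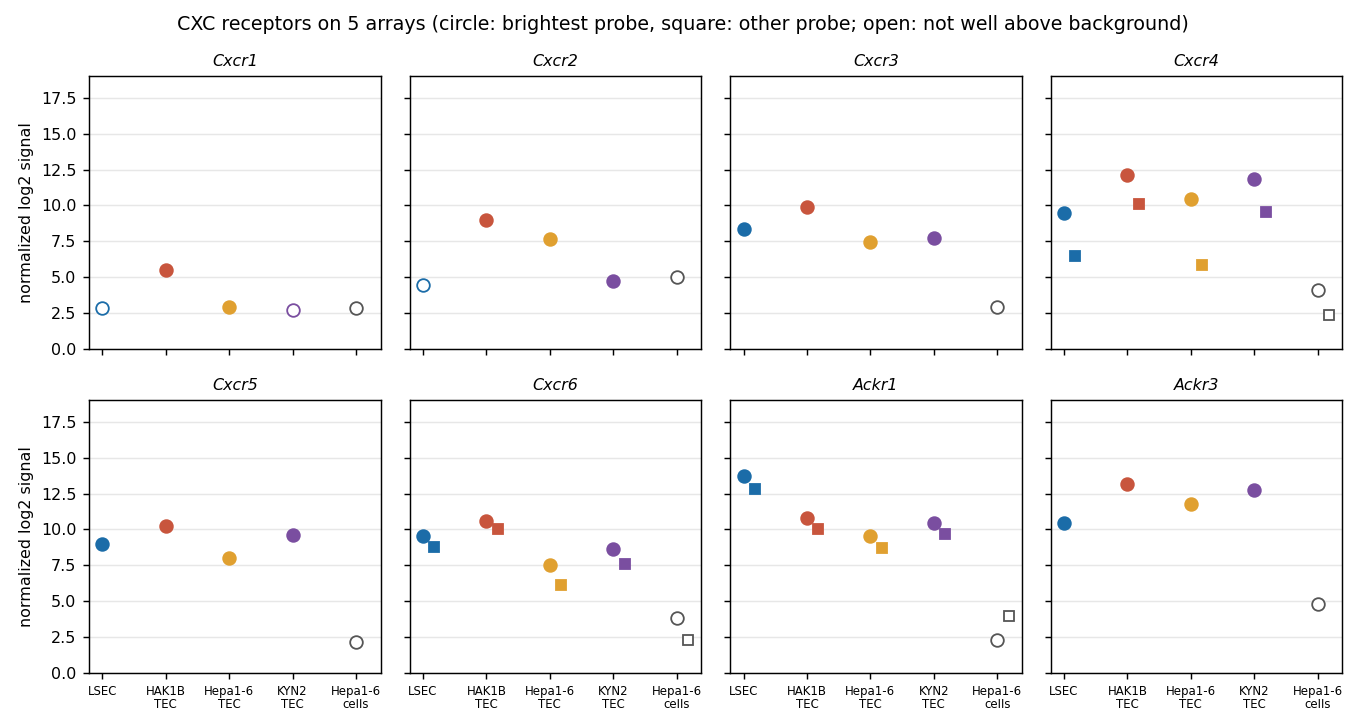
Normalized log2 signal (y axis) of the 8 CXC receptors on the 5 arrays (x axis), 1 point per array, with open symbols not well above background. Ackr1 is highest in LSEC, Cxcr4 and Ackr3 are higher in the TECs on their brightest probe, and Cxcr2 is highest in HAK1B TEC.

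Of the 5 other CXC ligands on the array, Pf4 and Ppbp are stored in platelets. Pf4 gave 15.31 in LSEC, 15.20 in HAK1B TEC, 15.78 in Hepa1-6 TEC, 16.90 in KYN2 TEC and 2.85, not above background, in the cancer cells. Ppbp gave 13.39 in LSEC, 9.997 in HAK1B TEC, 10.53 in Hepa1-6 TEC, 11.75 in KYN2 TEC and 8.93 in the cancer cells, and was called lower in HAK1B TEC. The 3 platelet markers, all measured on these 4 endothelial arrays, had medians of 9.94, 7.55, 8.39 and 9.66 and summed log2 signals of 12.31, 9.38, 9.76 and 11.66 in the same order, and their part was not tested. The brightest probe of Cxcl11 lay between 16.87 and 17.86 on all 5 arrays. It shares runs of 20 bases with 8 probes of other gene names and with the promoters of 19 other genes. Whether its level is that of Cxcl11 alone was not tested. The other Cxcl11 probe, which shares such a run with 1 probe of another name, gave 13.48 in LSEC and 11.74 to 11.99 on the other 4 arrays. Cxcl15, a chemokine known from lung epithelium, was called higher in Hepa1-6 TEC, at 9.49, where LSEC was not above background at 2.53, and gave 7.09 in the cancer cells. Cxcl17 gave 4.25 in Hepa1-6 TEC and was not above background elsewhere.

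Genes that cut or hold chemokines were read next. Of 7 such genes, Dpp4 was called lower in all 3 TECs and none was called higher in all 3, against the same 1.00% and 0.580% of all genes. Dpp4, a protease that shortens and inactivates Cxcl9, Cxcl10 and Cxcl12, gave 13.00 in LSEC and 8.81, 9.37 and 9.69 in HAK1B, Hepa1-6 and KYN2 TEC. Its second probe gave 7.38 in LSEC and 5.04, 3.73 and 5.39 in the TECs and was called lower in Hepa1-6 TEC alone. The third probe of Dpp4 was called lower in every TEC. Sdc4, a heparan sulfate proteoglycan, gave 8.18 in LSEC and 11.92, 11.28 and 11.57. Tnfaip6, a secreted protein that binds chemokines and heparan sulfate, was at 3.34 in LSEC, not above background, and at 8.42, 6.17 and 7.37. Of 10 genes of NF-kB and its inducers, all measured in LSEC and the TECs, 1 was called higher, in KYN2 TEC, where 3.64% of all genes were, and none lower in a TEC. The median log2 ratio was 1.14 in HAK1B TEC, -0.26 in Hepa1-6 TEC and 0.77 in KYN2 TEC. Tnf, a main inducer of NF-kB, gave 11.89 in LSEC and 13.24, 12.08 and 14.83 in HAK1B, Hepa1-6 and KYN2 TEC. Il1b gave 14.97 in LSEC and 17.30, 15.34 and 16.18. Nfkb2, an NF-kB subunit that NF-kB itself induces, gave 10.69 in LSEC and 12.33, 11.24 and 11.03. On the brightest probes these were the 3 of 10 genes higher in every TEC. None was lower in every TEC, and the rest lay on both sides of LSEC. On the brightest probes the mean log2 ratio over the TECs was -0.49 for Nfkb1 and -0.26 for Il6, but other probes differed. In HAK1B, Hepa1-6 and KYN2 TEC the second Nfkb1 probe had log2 ratios to LSEC of 2.39, -0.62 and 0.78. The third gave 0.48, -0.60 and -0.51, and the second Il6 probe -0.74, 0.63 and 0.25. In Hepa1-6 TEC the second probe of Tnf had a log2 ratio to LSEC of -0.099 and the third of Il1b -1.01. The share of all genes higher in every TEC was not counted.

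**Figure D5:**
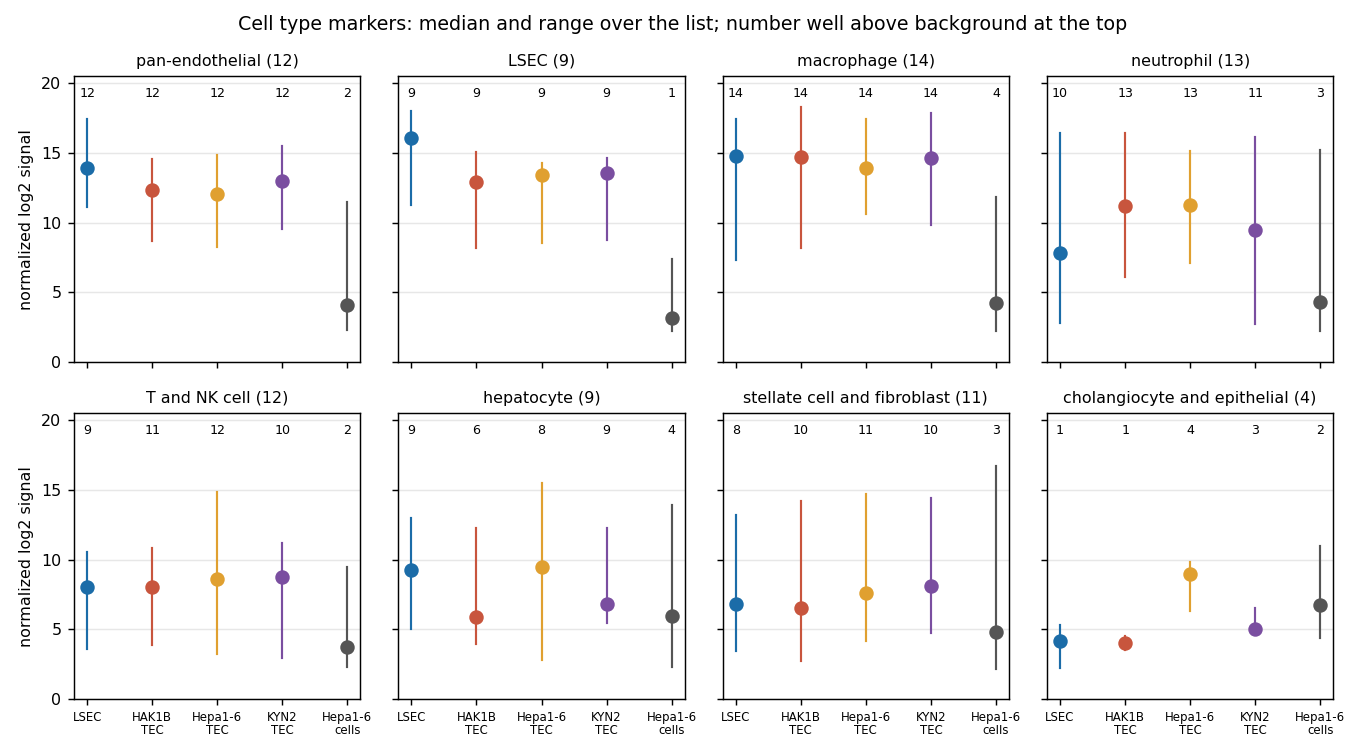
Median (point) and range (line) of normalized log2 signals (y axis) over each list of cell type markers on the 5 arrays (x axis), with the number of markers well above background above each line and the list size in the panel title. LSEC markers have their highest median, 16.10, in LSEC, and the neutrophil medians of 11.22 and 11.27 in HAK1B and Hepa1-6 TEC exceed that of LSEC, 7.82.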

How the data were processed

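RNA from 5 conditions was labelled with Cy3, hybridized to a 60-mer mouse array and scanned. Per the file headers, the authors read the spots with Feature Extraction 10.7.1.1, where the submitters' processing notes name 9.5.1.1. They deposited spot intensities on a linear scale, background-subtracted within each array, with flags for each spot, and a table of quantile-normalized intensities that served as an alternative. Array methods name Huh-7 where the labels have HAK1B. Control spots and 4460 lincRNA probes were left out of calls, spots of a probe were averaged, and log2 intensities were quantile normalized over the 5 arrays, whereas the methods normalize by pair. Quantile normalization over all 5 arrays also moves with the cancer cell array. Probes were kept when either array of a pair carried the present flag, and the rule of size of the methods was applied. With 1 array per condition, pairs of arrays were not tested. In limma 3.58.1 (R 4.3.3) the fit compared the 3 TECs with LSEC, with Benjamini-Hochberg adjustment. Python 3.11.15 with numpy 2.4.6, pandas 2.3.3 and matplotlib 3.10.9 served for the rest. The calls and limma were also run on simulated arrays, whose spread was set smaller than the members had over the TECs. That run therefore does not show how they perform on data like these.

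Where a probe was not well above background on 1 of a pair of arrays, the fold is a bound, the brighter value over the higher of the dim probe's own value and the lowest value well above background on that array. The members and the lists of receptors, ligands, pathway genes and cell type markers were chosen with earlier results of these data known. Every member, receptor and other CXC ligand is named, and of the other pathway lists the 3 genes with the largest absolute mean log2 ratio over the TECs. Alternatives were scaling to the 75th percentile, normalization by pair, the deposited table, normexp (offset 50) as background correction, other filters, other rules of size, other uses of a gene's probes and each TEC left out in turn. The number of arrays, 5, limits precision.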

Additional observations from a re-analysis of the deposited data

Results flagged for a closer look

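Among the 10 members, 8 receptors and 5 other CXC ligands, 4 genes measured on the LSEC array and every TEC array showed a split. In these, both TECs of the human lines lay on one side of LSEC and the TEC of the mouse line on the other. Il1a, Relb, Nfkbia, Nfkbiz, Tnfaip3 and Il6 of the NF-kB list split in this way too on their brightest probes. The share of all genes with such a split was not counted. The difference was not tested. The log2 ratio to LSEC of Cxcl1 was 0.80 in HAK1B TEC, 1.15 in KYN2 TEC and -0.32 in Hepa1-6 TEC, the last turning to 0.085 under scaling to the 75th percentile. That of Cxcl12 was 0.60, 3.04 and -1.45 in the same order. That of Cxcl16 was 1.96, 0.39 and -1.11. That of the receptor Cxcr5 was 1.23, 0.63 and -0.95. The Hepa1-6 TEC array also had the largest share of probes above background, 78.1%, and its part in these differences was not tested.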

How the results depend on the processing

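Of 240 recomputed ratios of a member to LSEC, 2 changed direction, neither in a comparison where the gene was called. They were Cxcl1 in Hepa1-6 TEC under scaling to the 75th percentile, and Cxcl10 in KYN2 TEC (-0.39) with the median over both probes. Under that scaling the median log2 ratio of all probes kept in Hepa1-6 TEC was 0.43, against 0.047 before. Calls of members moved most with the rule. At 2-fold without a Z-score, 5, 3, 6 and 2 members were higher in HAK1B, Hepa1-6 and KYN2 TEC and the cancer cells and 3 in all 3 TECs, and 2 and 5 were lower in HAK1B and Hepa1-6 TEC. With dim values at their bound, added after the data were seen, the higher counts were 4, 3, 6 and 2 and 2 in all 3 TECs, and the lower counts 2 and 5. At 1.5 or 0.66 without a Z-score, 8, 4, 6 and 2 were higher and 4 in all 3 TECs, and 2, 5 and 2 were lower in HAK1B, Hepa1-6 and KYN2 TEC and 1 in all 3. No share of all genes was counted under other filters, other uses of a gene's probes or other normalizations. With no flag filter 3 members were called higher in HAK1B TEC, 2 in Hepa1-6 TEC and 2 in the cancer cells. Where both arrays had to be flagged present, 0 were called higher in Hepa1-6 TEC, in the cancer cells and in all 3 TECs, since Cxcl3 was then left out, and 2 were called lower in the cancer cells. With the median over probes 1 was called higher in HAK1B TEC and 2 in KYN2 TEC, and with any probe 2 were called lower in HAK1B TEC. Under normexp 3 and 4 were called higher in HAK1B and KYN2 TEC and 2 lower in Hepa1-6 TEC. Without one TEC, the number called in both others lay between 1 and 2 for higher, 2 without Hepa1-6 TEC, and between 0 and 1 for lower, 1 without HAK1B TEC. The median ratio over the members kept its sign in every comparison under every alternative, but in the cancer cells it was -3.30 under normexp, -3.32 with dim values at their bound and -3.50 over the 3 members measured on both arrays. The mean over TECs gave a median of 0.33 without KYN2 TEC and 1.47 without Hepa1-6 TEC, against 0.64.

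For the 13 receptors and other ligands, counts are given in the order HAK1B, Hepa1-6 and KYN2 TEC and cancer cells. At 2-fold without a Z-score 7, 4, 3 and 1 were higher, against 17.4%, 25.0%, 16.8% and 28.2% of all genes. In all 3 TECs 1 was higher, against 6.33%, and 2 were lower, against 11.0%. In Hepa1-6 TEC, KYN2 TEC and the cancer cells 3, 2 and 8 were lower, against 22.1%, 18.3% and 30.9%. With no flag filter 4, 2, 1 and 1 were called higher, for which no share of all genes was counted. Scaling to the 75th percentile left 1 lower in HAK1B TEC and 0 in all 3 TECs. In limma 0 probes passed under every alternative, with a smallest adjusted p between 0.0576 under normexp and 0.982 without KYN2 TEC. Without one TEC, 1 residual degree of freedom was left. A block for slide was not possible, as no slide held 2 groups. No paired analysis was possible because no condition had a second array. Signals near background limit Cxcl5, the second Cxcl14 probe and all ratios to dim probes of the cancer cells. The cause of these changes was not tested except where named.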
